A study of Mus musculus with 8 samples.

Results

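The genes that add methyl groups to histone lysines or take them off were followed through early reprogramming of mouse embryonic fibroblasts (MEFs) in which *Ncor1* or *Oct4* had been targeted by siRNA. Members were chosen by symbol, as the KDM, KMT2, KMT5, SETD, SETDB, SUV39H, EHMT and NSD families, *Dot1l*, and the COMPASS core subunits *Wdr5*, *Ash2l*, *Rbbp5* and *Dpy30*. The table held 46 of them among 18990 genes, and all 46 were among the 13866 genes tested. By the mark they act on, 17 belonged to H3K4, 12 to H3K9, 7 to H3K36 and 1 to H3K79, and the other 9 act on H4K20 or H3K27 or are SET domain proteins of other or unsettled substrate.

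The cells were primary wild-type MEFs of the C57/BL6 strain, transduced with lentiviruses for rtTA and the doxycycline-inducible mouse tet-STEMCCA cassette, which carries Oct4, Sox2, Klf4 and c-Myc. They received a 40 nM siRNA pool against *Ncor1* (*siNcor1*) or *Oct4* (*siOct4*). Reprogramming medium followed, with doxycycline, a GSK3 inhibitor, a TGF-beta inhibitor, ascorbic acid and LIF. Total RNA depleted of ribosomal RNA was sequenced at day 3 and day 6. Each of the 4 groups held 2 biological replicates, named R1 and R2 below. The non-targeting control was not analysed here, so every knockdown comparison is of *siOct4* with *siNcor1*, and the cells are a mixed population of which an unknown part had begun to reprogramme.

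Lysine methylation of histones is written by SET domain enzymes and by DOT1L, which lacks that domain, and is erased by the KDM1 amine oxidases and the JmjC oxygenases. Methyl H3K4 marks promoters and enhancers and is laid down by the COMPASS-like complexes, in which WDR5, RBBP5, ASH2L and DPY30 form a core shared by the SETD1 and KMT2 catalytic subunits. Methyl H3K9 marks heterochromatin and is a known barrier to reprogramming, methyl H3K36 follows transcribed gene bodies, and methyl H3K79 lies over active genes, where DOT1L is known to help hold the fibroblast state.

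Between 7735742 and 16445192 reads on genes were recovered per library, and the members had between 40 and 5820 reads, so none was near the limit of detection (3 reads amount to 0.174 to 0.380 CPM, read counts scaled to the same library total). The targeted genes did not follow the labels in every comparison. The siRNAs were given before doxycycline, and the cassette supplies *Oct4* mRNA once it is induced. *Ncor1* was higher in *siOct4* than in *siNcor1* at day 3 (log2 fold change 0.74 ± 0.12 SE, adjusted p = 0.0139 by limma) but not at day 6 (-0.04, adjusted p = 0.815), and *Pou5f1*, which encodes OCT4 and whose reads may come from the cassette or the endogenous gene, was not lower in *siOct4* at day 3 (-0.08, adjusted p = 0.941) and was higher there at day 6 (1.78, adjusted p = 0.000109). The groups are therefore named by their labels, as the libraries labelled *siNcor1* and *siOct4*. A single unnamed gene model, *Gm26917*, took 15.5% to 16.6% of reads at day 3, 20.3% to 21.7% in *siNcor1* at day 6 and 23.9% to 29.1% in *siOct4* at day 6. Summed fibroblast markers were at 6178 to 6298 CPM in *siNcor1* and 8722 to 10274 CPM in *siOct4* at day 3, where 0 of 8 were called between the knockdowns. At day 6 the sums were at 4329 to 4689 and 2416 to 2522 CPM, and 6 of 8 were called lower in *siOct4*. These sums are not the course of each marker. Over time in *siNcor1*, *Col3a1*, *Twist2*, *Dcn* and *Thy1* were called higher and *Col1a2* and *Col1a1* lower, with a median log2 fold change of 0.35 over the 8, and in *siOct4* *Dcn* was called higher and 5 lower, with a median of -0.81. Summed pluripotency markers were at 51.3 to 52.7 and 10.5 to 16.3 CPM at day 3, with *Zfp42* at 0 in both knockdowns. At day 6 they were at 340 to 352 and 190 to 210 CPM. Of the 7 tested, *Nanog*, *Cdh1* and *Epcam* were called lower in *siOct4* at day 3, and *Cdh1*, *Dppa5a* and *Esrrb* at day 6. At either day 0 were called higher. In bulk RNA, fewer cells of a type and less RNA per cell cannot be told apart, and the part of these shifts in the results that follow was not tested.

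Per length, *Dpy30* was the most abundant member, with a mean of 97.2 CPM per kb of exon over the 4 groups. *Ehmt2*, the G9a writer of H3K9 dimethylation, followed at 34.7, *Wdr5* at 32.7, *Kdm5c*, an eraser of H3K4 methylation, at 30.5 and *Kmt5a*, the H4K20 monomethyltransferase, at 28.9 CPM per kb. The lowest were *Setdb2*, a writer of H3K9 methylation, at 1.94 and *Setd4* at 1.45 CPM per kb. Most neighbours in this order stood close together, such as *Kdm8* and *Kdm7a*, both at 3.04 CPM per kb. The median SD between replicates over the members was 0.07 on the log2 scale in *siNcor1* at both days, 0.09 in *siOct4* at day 3 and 0.15 in *siOct4* at day 6.

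**Figure D1:**
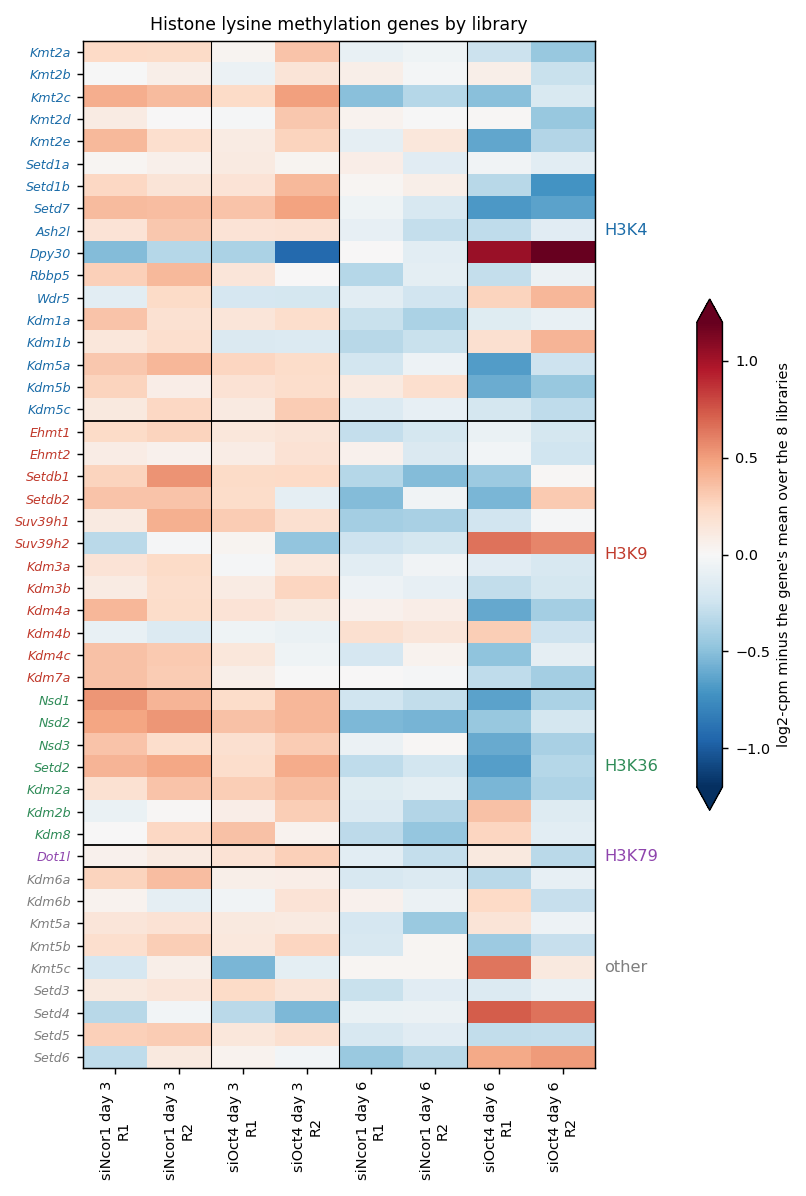
Expression of the 46 members in the 8 libraries, as log2-cpm minus each gene's mean over the libraries (red above, blue below), with rows grouped by histone mark and columns by group (R1 and R2 are the replicates). Most rows turn blue at day 6, while *Dpy30*, *Suv39h2*, *Setd4*, *Setd6*, *Wdr5* and *Kdm1b* are red in both *siOct4* libraries at day 6.

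At day 3, no member was called different between the knockdowns. None of the 46 passed an adjusted p of 0.05 by limma, where 1.07% of all genes tested did, and none passed with voom on the recovered reads. Without adjustment 2 members had p below 0.05. These were *Kdm1b*, an H3K4 eraser known from growing oocytes, at -0.34 ± 0.14 (adjusted p = 0.414), and *Kdm7a*, a JmjC eraser, at -0.30 ± 0.13 (adjusted p = 0.414). The values of the knockdowns were apart in both replicates for 21 members, 5 higher and 16 lower in *siOct4*, against 43.4% of all genes. Over all genes 0.375% were called higher and 0.692% lower. The median log2 fold change of the members was -0.05, beside -0.02 over all genes.

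At day 6, 13 of 46 members (28.3%) differed between the knockdowns, near the 30.7% of all genes that did. In *siOct4*, 7 were higher, beside 12.1% of all genes, and 6 were lower, beside 18.6%. Those higher were the core subunits *Dpy30* and *Wdr5*, the H3K9 writer *Suv39h2*, the H4K20 writer *Kmt5a*, the H3K4 eraser *Kdm1b*, and *Setd6* and *Setd4*. Those lower were *Setd1b*, *Setd7* and *Kmt2e* of the H3K4 writer families, the H3K4 eraser *Kdm5b*, the H3K9 and H3K36 eraser *Kdm4a* and the H3K36 writer *Nsd3*. The replicates did not overlap for 13 members higher and 17 lower, against 64.7% of all genes, and the median log2 fold change was -0.05 over the members and -0.03 over all genes. Without R1 or R2 of *siNcor1* at day 6 fewer members were called, and fewer of all genes as well. The median log2 fold change of the members was then -0.06 and -0.08. *Dpy30*, *Setd6* and *Kdm5b* kept their call without each of the 8 libraries in turn.

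Of the 4 COMPASS core subunits, 2 were called, both of them higher in *siOct4*. *Dpy30* was at 6.61 and 6.48 log2-cpm in *siNcor1* at day 6 and at 7.64 and 7.87 in *siOct4*, where both libraries also stood above all 4 of day 3 (6.09 and 6.27 in *siNcor1*, 6.22 and 5.68 in *siOct4*). It was 2.31-fold higher in *siOct4* at day 6 (log2 fold change 1.21 ± 0.17, adjusted p = 0.000652), the largest positive difference of any member. DPY30 is the small subunit that docks on ASH2L and stimulates H3K4 trimethylation. *Wdr5*, the scaffold, was at 6.74 and 6.63 in *siNcor1* and 7.12 and 7.26 in *siOct4* at day 6 (log2 fold change 0.51 ± 0.13, adjusted p = 0.0146, and 0.125 without *siNcor1* day 6 R2). The groups did not overlap for either gene. *Ash2l* (5.92 and 5.73 against 5.71 and 5.88) and *Rbbp5* (4.57 and 4.79 against 4.62 and 4.84) overlapped between the knockdowns and were not called.

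**Figure D2:**
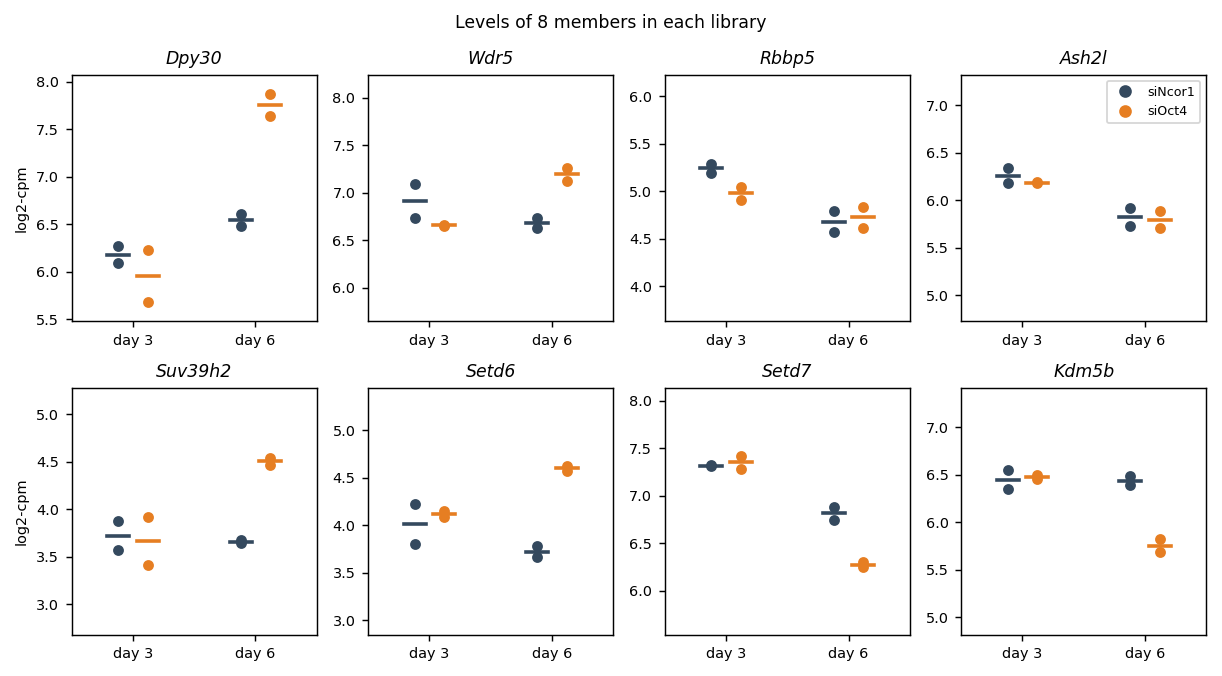
Log2-cpm of 8 members in each library at day 3 and day 6 (points are libraries, bars are means of 2, dark for *siNcor1* and orange for *siOct4*), each panel spanning the same 2.6 log2 units. *Dpy30*, *Wdr5*, *Suv39h2* and *Setd6* are highest and *Setd7* and *Kdm5b* lowest in *siOct4* at day 6, while *Rbbp5* and *Ash2l* overlap between the knockdowns there.

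Of the SETD1 and KMT2 catalytic subunits that join this core, only *Setd1b* was called at day 6. *Setd1b*, a writer of H3K4 trimethylation at promoters, was at 6.10 and 6.14 in *siNcor1* and 5.73 and 5.35 in *siOct4* at day 6 (-0.58 ± 0.14, adjusted p = 0.0113, and 0.0874 without *siNcor1* day 6 R2). Its paralogue *Setd1a* was not called (-0.06 ± 0.13). None of *Kmt2a*, *Kmt2b*, *Kmt2c* and *Kmt2d* was called either, with log2 fold changes between -0.29 and 0.08. *Kmt2e*, which bears the family name although its SET domain has no known methyltransferase activity, was lower (-0.50 ± 0.14, adjusted p = 0.0203), but not without *siNcor1* day 6 R2 (adjusted p = 0.195) or *siOct4* day 6 R1 (0.0804). *Kmt2e* overlaps *Srpk2* on the other strand, which was at -0.50 as well (adjusted p = 0.035). Exons of 18 members overlap another gene, 17 of them on the other strand. Whether the counting used strand is not stated, so reads on the bases that such pairs share may belong to either gene. The extent of the shared bases was not measured. *Setd7*, a monomethyltransferase of H3K4 and of non-histone proteins, was at 6.89 and 6.75 in *siNcor1* and 6.25 and 6.30 in *siOct4* (-0.54 ± 0.11, adjusted p = 0.005, and 0.0532 without *siNcor1* day 6 R1). Both *siOct4* libraries of day 6 lay below all other libraries for *Setd7*.

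The H3K4 erasers split. *Kdm5b*, which removes trimethylation and is known from embryonic stem cells, was at 6.39 and 6.48 in *siNcor1* and 5.69 and 5.82 in *siOct4* at day 6. This was a 1.61-fold lower level (-0.68 ± 0.12, adjusted p = 0.00205), and the 4 libraries of day 3 (6.55 and 6.35, 6.46 and 6.49) lay with *siNcor1*. *Kdm1b* went the other way, at 3.99 and 4.06 in *siNcor1* and 4.52 and 4.73 in *siOct4* (0.60 ± 0.14, adjusted p = 0.00918, and 0.0601 and 0.0583 without *siNcor1* day 6 R1 and R2). *Dek*, whose exons overlap those of *Kdm1b* on the other strand, was at 0.22 (adjusted p = 0.287). *Kdm1a*, the LSD1 eraser that works with CoREST, was at 0.21 ± 0.12 and was not called, nor were *Kdm5a* and *Kdm5c*.

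Among the H3K9 genes, *Suv39h2* and *Kdm4a* were called. *Suv39h2*, which writes H3K9 trimethylation at pericentric heterochromatin, was at 3.64 and 3.67 in *siNcor1* and 4.54 and 4.47 in *siOct4* at day 6, the highest of all 8 libraries (3.56 and 3.87, 3.92 and 3.41 at day 3). It was 1.80-fold higher (0.85 ± 0.19, adjusted p = 0.00695, and 0.0505 without *siNcor1* day 6 R2). Its antisense neighbour *Dclre1c*, with overlapping exons, was at 0.44 (adjusted p = 0.0805). The paralogue *Suv39h1*, which shares this role, was at 0.28 ± 0.15, and *Setdb1*, the writer recruited by TRIM28, at 0.22 ± 0.16, neither of them called. *Cers2*, which overlaps *Setdb1* on the other strand, was called lower (-0.45, adjusted p = 0.0258). *Kdm4a*, a JmjC eraser of trimethylated H3K9 and H3K36, was at 6.58 and 6.61 in *siNcor1* and 5.92 and 6.12 in *siOct4* (-0.58 ± 0.12, adjusted p = 0.00511, and 0.0545 without *siNcor1* day 6 R2), while its paralogues *Kdm4b* and *Kdm4c* were not called. Leaving out single libraries put the adjusted p of *Suv39h2* and *Kdm4a* just past the threshold and turned the direction of neither.

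Of the 7 H3K36 genes only *Nsd3* was called at day 6, at -0.47 ± 0.12 (adjusted p = 0.015), and it was not called without *siNcor1* day 6 R1 (0.0538) or R2 (0.126) or *siOct4* day 6 R1 (0.0529). *Dot1l* had 6.57 and 6.40 log2-cpm in *siNcor1* and 6.80 and 6.37 in *siOct4* at day 6, after 6.74 and 6.80 and 6.87 and 6.98 at day 3. It was called in none of the 5 comparisons, and its *siOct4* libraries of day 6 lay on both sides of *siNcor1* (0.10 ± 0.15, adjusted p = 0.634). Outside these marks, *Setd6*, known to methylate the NF-kB subunit RELA, was at 3.67 and 3.78 in *siNcor1* and 4.57 and 4.63 in *siOct4* (1.84-fold, 0.88 ± 0.17, adjusted p = 0.0031). *Setd4* was at 2.84 and 2.85 in *siNcor1* and 3.64 and 3.57 in *siOct4* (1.70-fold, 0.76 ± 0.19, adjusted p = 0.0127, and 0.0613 and 0.0802 without *siNcor1* day 6 R1 and R2). In both genes the *siOct4* libraries of day 6 were above the other 6 libraries. *Kmt5a* was the least firm call, at 0.37 ± 0.13 (adjusted p = 0.0429), and kept it in 1 of 8 fits that left out a library, with an adjusted p of 0.339 without *siNcor1* day 6 R2. The H3K27 erasers *Kdm6a* and *Kdm6b* were at -0.03 and -0.01.

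**Figure D3:**
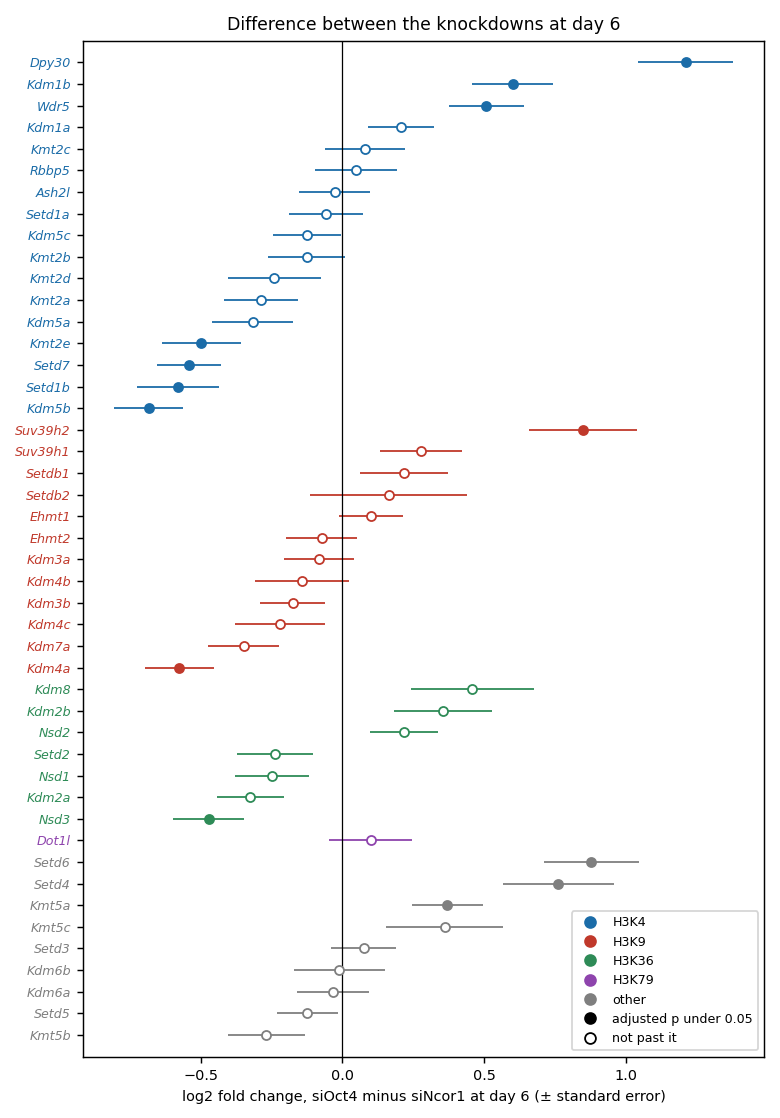
Log2 fold change of each member at day 6, *siOct4* minus *siNcor1*, with its standard error from limma over 2 libraries per group, coloured by histone mark and filled where the adjusted p is under 0.05. *Dpy30* at 1.21 lies apart at the top, and *Kdm5b* at -0.68 is the lowest.

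The promoters of 4 members that moved apart at day 6 are shown for reference, *Wdr5* and *Setd6* as members that were higher and *Kdm5b* and *Setd7* as members that were lower in *siOct4*. The sequences are from RefSeq on GRCm38.p6, 5' to 3' on the strand of the gene, ending before the annotated gene, with CpG dinucleotides in capitals. They lie at chr2:27514897-27515146 (plus strand, *Wdr5*), chr8:95715663-95715880 (plus strand, *Setd6*), chr1:134559928-134560170 (plus strand, *Kdm5b*) and chr3:51560880-51561073 (minus strand, *Setd7*).
Wdr5: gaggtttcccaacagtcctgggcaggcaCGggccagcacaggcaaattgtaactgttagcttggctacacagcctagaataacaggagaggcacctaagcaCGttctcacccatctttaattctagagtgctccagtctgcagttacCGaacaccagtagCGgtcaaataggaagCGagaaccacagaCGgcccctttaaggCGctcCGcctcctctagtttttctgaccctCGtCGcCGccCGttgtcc
Setd6: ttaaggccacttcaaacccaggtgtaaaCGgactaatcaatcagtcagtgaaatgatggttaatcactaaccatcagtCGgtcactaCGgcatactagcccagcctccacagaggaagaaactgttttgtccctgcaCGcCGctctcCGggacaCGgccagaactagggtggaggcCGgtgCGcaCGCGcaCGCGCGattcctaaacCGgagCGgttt
Kdm5b: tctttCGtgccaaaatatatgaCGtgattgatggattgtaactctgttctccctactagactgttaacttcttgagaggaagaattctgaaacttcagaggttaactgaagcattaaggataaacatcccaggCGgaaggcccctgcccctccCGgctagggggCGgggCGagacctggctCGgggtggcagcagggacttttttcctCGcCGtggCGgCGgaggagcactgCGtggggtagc
Setd7: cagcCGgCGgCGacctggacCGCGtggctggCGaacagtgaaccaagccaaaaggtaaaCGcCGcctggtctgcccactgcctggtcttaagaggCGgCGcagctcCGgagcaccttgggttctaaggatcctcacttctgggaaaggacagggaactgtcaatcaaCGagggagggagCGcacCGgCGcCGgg
The 4 promoters held more CpGs than the median of all promoters and fewer than the median of the members. The stretches printed for *Setd6*, *Kdm5b* and *Setd7* are shorter than 250 bases, at 218, 243 and 194, and hold 16, 12 and 16 CpGs. In the 250 bases before the start there were 12 CpGs in *Wdr5*, 20 in *Setd6*, 13 in *Kdm5b* and 17 in *Setd7*, and the median was 21 over the 49 promoters listed for 34 of the 46 members, beside 6 over all 32851 promoters of that length. The E-box CACGTG, a motif of MYC and MAX, was found on either strand in 4 of the 49, which belong to *Ehmt2*, *Kdm4c* and *Kdm6a*, where 6.02% of all promoters hold it. The octamer ATGCAAAT was found in 0 of the 49 and in 1.60% of all promoters.

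From day 3 to day 6 in *siNcor1*, 18 members were called, each of them lower. This was 39.1% of the 46, beside 34.8% of all genes, of which 13.8% were called higher and 20.9% lower. The median log2 fold change was -0.32 over the members and -0.07 over all genes. Of the 4 H3K36 writers 3 were called. *Nsd2*, which writes H3K36 dimethylation, was at 7.21 and 7.26 at day 3 and 6.19 and 6.18 at day 6 (2.07-fold lower, -1.05 ± 0.12, adjusted p = 9.29e-05), and *Nsd1*, of the same activity, went from 8.49 and 8.37 to 7.73 and 7.67 (-0.73 ± 0.13, adjusted p = 0.00149). *Setd2*, the writer of H3K36 trimethylation, went from 7.17 and 7.23 to 6.46 and 6.55 (-0.70 ± 0.14, adjusted p = 0.00241). In each of these genes the replicates of the days did not overlap, as was so for 2 members higher and 35 lower, against 73.1% of all genes.

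The H3K9 writers *Setdb1*, *Suv39h1* and *Ehmt1* fell as well. *Setdb1* went from 6.74 and 7.01 to 6.12 and 5.95 (-0.83 ± 0.16, adjusted p = 0.00204), *Suv39h1* changed by -0.67 ± 0.14 (adjusted p = 0.00441, and 0.0625 without *siNcor1* day 3 R2), and *Ehmt1*, the partner of G9a, by -0.50 ± 0.11 (adjusted p = 0.00574, and 0.0618 without *siNcor1* day 6 R1). None of the 6 H3K9 erasers was called. Of the H3K4 genes, *Kmt2c*, an enhancer monomethyltransferase, went from 6.76 and 6.70 to 5.83 and 5.98 (-0.83 ± 0.14, adjusted p = 0.00123), while its paralogue *Kmt2d* was not called (-0.03). *Kdm1a*, *Rbbp5*, *Kdm5a*, *Setd7*, *Kdm1b* and *Ash2l* fell by 0.59 to 0.44 on the log2 scale, as did *Kdm6a*, *Kmt5a*, *Setd5*, *Kdm2a* and *Setd3* by 0.50 to 0.33. The genes that overlap *Nsd2*, *Setdb1* and *Kdm1b* on the other strand gave -0.40 for *Nelfa* (adjusted p = 0.0445), -0.36 for *Cers2* (adjusted p = 0.0564) and -0.47 for *Dek* (adjusted p = 0.0299), the last equal to *Kdm1b* to 2 decimals. Fewer members were called without any one of the *siNcor1* libraries. More were called without either *siOct4* library of day 6, which enter only through the estimate of the spread. The number of all genes called moved the same way in each case. *Nsd2*, *Setdb1*, *Kmt2c*, *Nsd1*, *Setd2* and *Kdm1a* kept their call without each of the 8 libraries.

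In *siOct4*, 31 members changed over the same days, 24 of them lower and 7 higher. This was 67.4% of the 46, beside 52.7% of all genes (22.2% higher, 30.5% lower), and the median was -0.34 over the members and -0.08 over all genes. The days did not overlap for 7 members higher and 31 lower, against 74.8% of all genes. With library totals lowered by the share of *Gm26917*, which put the median of all genes at 0.12, 7 members were called higher and 14 lower. Over all genes 4138 were then called higher and 3064 lower. *Dpy30* rose 3.49-fold (1.80 ± 0.17, adjusted p = 6.88e-06), *Setd4* 2.17-fold from 2.59 and 2.38 to 3.64 and 3.57 (1.12 ± 0.19, adjusted p = 0.000525), *Suv39h2* 1.79-fold (0.84 ± 0.19, adjusted p = 0.00304) and *Wdr5* 1.45-fold, from 6.66 and 6.65 (0.54 ± 0.13, adjusted p = 0.00523). *Kmt5c*, a writer of H4K20 trimethylation in heterochromatin, went from 3.61 and 4.04 to 4.80 and 4.28 (0.72 ± 0.21, adjusted p = 0.0115, and 0.115 without *siOct4* day 3 R1 and 0.0833 without *siOct4* day 6 R1). *Setd6* and *Kdm1b* rose by 0.48 and 0.47 and lost their calls without either *siOct4* library of day 3 or without *siOct4* day 6 R2, with adjusted p-values between 0.0679 and 0.131.

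The largest fall was that of *Setd7*, from 7.29 and 7.42 to 6.25 and 6.30 (2.11-fold lower, -1.08 ± 0.11, adjusted p = 1.69e-05). *5031434O11Rik*, which overlaps *Setd7* on the other strand, rose by 1.82 (adjusted p = 0.00164). *Ccdc77*, which overlaps *Kdm5a*, also went against its member (0.97, adjusted p = 0.000526). The other called partners went with theirs: *Dclre1c* with *Suv39h2* (0.49, adjusted p = 0.0353), *Cers2* with *Setdb1* (-0.83, adjusted p = 0.000347) and *Srpk2* with *Kmt2e* (-0.49, adjusted p = 0.0243). Reads on the bases that these pairs share may belong to either gene. All 4 H3K36 writers were called lower, with a median of -0.79, but each has more than 8000 exon bases, and with the relation to exon length removed the median was -0.17 and only *Setd2* kept its call. *Setd2* went from 6.98 and 7.21 to 6.11 and 6.42 (-0.83 ± 0.14, adjusted p = 0.000339), *Nsd1* from 8.18 and 8.37 to 7.32 and 7.58 (-0.82 ± 0.13, adjusted p = 0.000268), *Nsd3* changed by -0.75 and *Nsd2* by -0.71. The eraser *Kdm2a*, which acts on dimethylated H3K36 at CpG islands, changed by -0.79 ± 0.12 (adjusted p = 0.000183). *Setd1b* went from 6.24 and 6.45 to 5.73 and 5.35 (-0.80 ± 0.14, adjusted p = 0.000655), and *Kdm5b*, *Kmt2c*, *Kdm5a*, *Kmt2e* and *Kdm4a* changed by -0.72 to -0.65. The other 12 lower calls lay between -0.55 and -0.29, the smallest being *Kdm1a* and *Ehmt1*, which lost their call in 8 and 7 of the 8 fits that left out a library. Without *siOct4* day 3 R2 fewer members were called, and fewer of all genes as well. Beside the losses named above, *Kmt2a*, *Kdm5c*, *Setdb1*, *Kdm3b*, *Ash2l*, *Kdm7a*, *Suv39h1* and *Setd3* each lost their call without at least 1 library.

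The 2 courses over time share no library. Of the members that fell, 14 did so in both knockdowns, which is 77.8% of the 18 in *siNcor1* and 58.3% of the 24 in *siOct4*. Of all genes tested, 1938 were called lower in both, which is 66.8% of those lower in *siNcor1* and 45.8% of those lower in *siOct4*. The 14 members include *Nsd1*, *Nsd2* and *Setd2* of H3K36, *Setdb1*, *Suv39h1* and *Ehmt1* of H3K9, and *Kmt2c*, *Kdm1a* and *Kdm5a* of H3K4. *Kdm1b* was called lower in *siNcor1* and higher in *siOct4*. *Dot1l*, *Ehmt2*, *Kdm2b*, *Kdm3a*, *Kdm4b*, *Kdm4c*, *Kdm6b*, *Kdm8*, *Kmt2b*, *Kmt2d*, *Setd1a* and *Setdb2*, 12 in all, were called in none of the 5 comparisons, which does not show that they were level. Summed cycling markers were lower at day 6 as well, at 1133 to 1389 CPM and 681 to 716 CPM at day 3 and day 6 in *siNcor1* and at 1129 to 1145 and 760 to 935 CPM in *siOct4*, and 3 of these 8 markers were called higher in *siOct4* at day 6. These sums are not the course of each cycling marker. Over time in *siNcor1*, 6 of the 8 were called lower and 0 higher, with a median log2 fold change of -0.78. In *siOct4*, *Plk1*, *Mki67* and *Top2a* were called lower and *Cdk1* higher, with a median of -0.08. The part of cycling in the members' course was not tested.

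**Figure D4:**
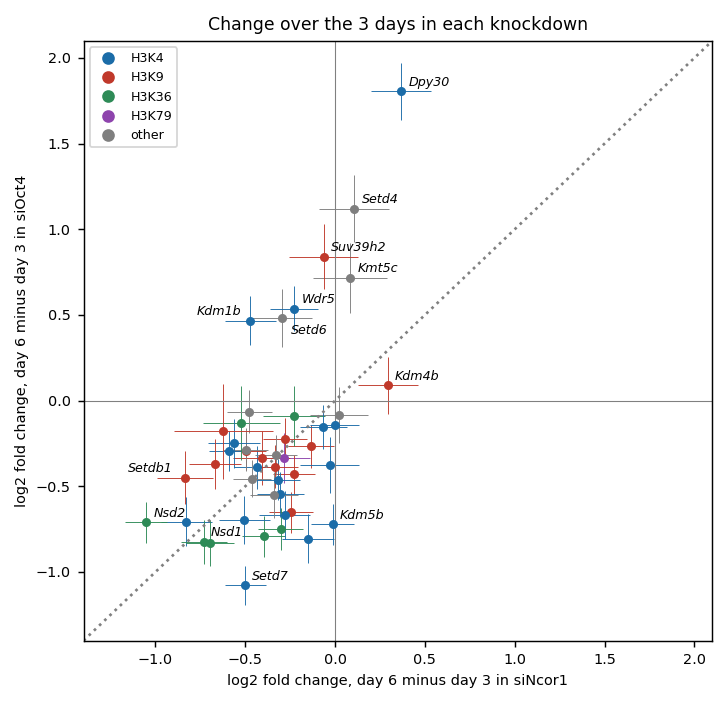
Log2 fold change from day 3 to day 6 of the 46 members in *siNcor1* (horizontal) and *siOct4* (vertical), with standard errors from limma and coloured by histone mark, and the dotted line where both are equal. Most members lie below 0 on both axes, *Dpy30*, *Setd4*, *Suv39h2*, *Kmt5c*, *Wdr5*, *Setd6* and *Kdm1b* lie above 0 in *siOct4*, and *Setd7* and *Kdm5b* lie below the line.

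The difference between the knockdowns changed from day 3 to day 6 for 9 members (19.6% of the 46, beside 20.7% of all genes, 7.77% in the positive and 12.9% in the negative direction), and its median was 0.01 over the members as over all genes. It shifted towards *siOct4* for *Dpy30* (1.44 ± 0.24, adjusted p = 0.00225), *Setd4* (1.01 ± 0.28, adjusted p = 0.0245), *Kdm1b* (0.94 ± 0.20, adjusted p = 0.0086), *Suv39h2* (0.90 ± 0.27, adjusted p = 0.0353), *Setd6* (0.78 ± 0.24, adjusted p = 0.0381) and *Wdr5* (0.76 ± 0.19, adjusted p = 0.0164). It shifted towards *siNcor1* for *Kdm5b* (-0.71 ± 0.17, adjusted p = 0.0143), *Setd1b* (-0.65 ± 0.20, adjusted p = 0.0416) and *Setd7* (-0.58 ± 0.16, adjusted p = 0.0271). These values rest on the same libraries as the comparisons above. Only *Dpy30* and *Kdm1b* kept their call without each library in turn. Fewer members were called without *siNcor1* day 3 R2, *siOct4* day 3 R2 or either *siNcor1* library of day 6, and fewer of all genes as well.

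Exon length moved with these results. The members had a median of 8170.5 exon bases, beside 4362.5 over all genes tested, and over the members the log2 fold change fell with exon length between the knockdowns at day 6 (Spearman rho -0.65 over 46 genes, beside -0.23 over all genes) and over time in *siOct4* (-0.77 beside -0.38), but less so over time in *siNcor1* (-0.18 beside -0.33). The genes share libraries, so these are descriptions. Of the 24 members above 8000 exon bases, 18 were called lower and 0 higher over time in *siOct4*. Their median was -0.55, beside -0.49 for all genes of that length, of which the share called lower was not counted. When the relation to exon length was taken out of every library, a step chosen after seeing the data, the calls at day 6 were 10 higher and 3 lower (beside 30.8% of all genes, 13.6% higher and 17.2% lower). All 7 members that had been higher kept their call, among them *Dpy30* (0.98, adjusted p = 0.00049) and *Suv39h2* (0.88, adjusted p = 0.0042), and of those lower *Kdm5b* (-0.44, adjusted p = 0.0093), *Kdm4a* (-0.49, adjusted p = 0.0062) and *Setd7* (-0.35, adjusted p = 0.028) did. *Setd1b*, *Kmt2e* and *Nsd3* did not, with adjusted p-values of 0.081, 0.064 and 0.12.

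The falls over time were the most affected. In *siNcor1*, 9 of the 18 calls were kept, and *Nsd2* (-0.65, adjusted p = 0.00083), *Setdb1* (-0.63, adjusted p = 0.0052) and *Suv39h1* (-0.56, adjusted p = 0.0085) had the largest values among them. In *siOct4*, 9 of 31 were kept, namely *Dpy30*, *Setd4*, *Suv39h2*, *Kmt5c*, *Kdm1b* and *Wdr5*, higher, and *Setd7* (-0.61, adjusted p = 0.00071), *Kdm4a* (-0.44, adjusted p = 0.0057) and *Setd2* (-0.36, adjusted p = 0.019), lower. Without that relation 47.6% of all genes were called in *siOct4*, 23.6% higher and 24.0% lower, and 29.8% in *siNcor1*, 15.0% higher and 14.8% lower. For the change of the difference, 6 members were then called in the positive and 1 in the negative direction, beside 22.1% of all genes, 8.9% and 13.2% by direction. Whether the relation to length is a property of the libraries or of the cells was not tested.

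**Figure D5:**
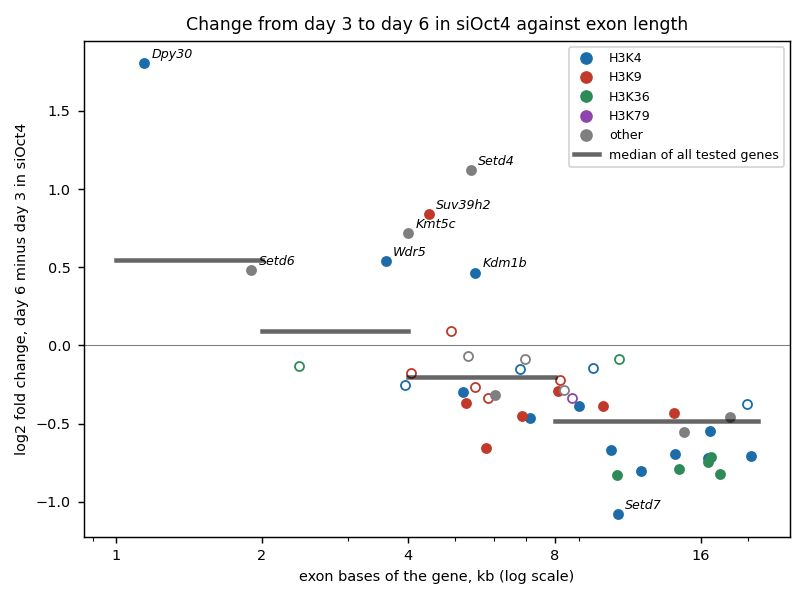
Log2 fold change from day 3 to day 6 in *siOct4* of each member against its exon length in kb (log scale), coloured by histone mark and filled where the adjusted p is under 0.05, with grey bars at the median of all tested genes in each of 4 length ranges. The members above 8000 bases lie around the grey bar of that range at -0.49. *Dpy30*, *Setd4*, *Suv39h2*, *Kmt5c*, *Kdm1b* and *Wdr5* lie above the bars of their ranges, while *Setd6* lies below its bar.

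Partners and further enzymes of the same marks were taken from 6 lists with 56 of 57 genes in the table. At day 3 none was called. At day 6, 9 were higher and 13 lower in *siOct4*, beside 12.1% and 18.6% of all genes. The 2 largest positive and the 2 largest negative differences were those of *Rcor2*, a CoREST partner of KDM1 enzymes (0.80 ± 0.27, adjusted p = 0.0437), *Jmjd6*, a JmjC hydroxylase (0.60 ± 0.13, adjusted p = 0.00492), *Mecom* (-1.19 ± 0.20, adjusted p = 0.00149) and *Prdm16* (-1.19 ± 0.22, adjusted p = 0.0024), both of the PRDM family with reported H3K9 methyltransferase activity. Among the 10 COMPASS cofactors *Psip1* and *Men1* were higher and *Ncoa6* was lower, and of the 6 DOT1L partners *Mllt1* was higher and *Aff1* and *Aff4* were lower. Over time 2 of the 56 rose and 18 fell in *siNcor1*, and 7 rose and 22 fell in *siOct4*, with medians of -0.28 and -0.25 beside -0.07 and -0.08 over all genes. Over all genes 13.8% rose and 20.9% fell in *siNcor1*, and 22.2% and 30.5% in *siOct4*.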

How the data were processed

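RNA-seq libraries of 8 samples, 2 biological replicates in each of 4 groups, were used. The authors aligned reads to mm10 with STAR (2.5.2b in the submitters' processing notes), and the authors deposited log2-cpm values made with edgeR 3.20.9. The counting tool and its use of strand are not given in the sources used here. Whole reads were recovered from the deposited log2 values for 100% of values (tolerance 0.1 read), and a group mean rests on 2 libraries. The totals to which the deposited values are scaled were 0.951 to 1.05 times the reads on genes of their library. The alternative without *Gm26917* lowered each of these totals by that gene's share of reads and did not estimate the scaling anew. Replicate libraries of each group were further apart than sampling of reads gives (chi-square over its degrees of freedom, 9.68 to 22.4).

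Genes whose mean reached 1 CPM were tested with limma 3.58.1 in R 4.3.3 (lmFit and eBayes with a variance trend, 4 groups in 1 fit, Benjamini-Hochberg adjustment at 0.05 over all 13866 genes), on the log2 values, in 5 comparisons. Standard errors are from this fit. The fit was tested on simulated data. Exon lengths, coordinates and overlaps are from GENCODE M21, which matched all 46 members. The members and lists were chosen with earlier results of these data known. Values in every library are given for up to 4 called members with the largest positive and up to 4 with the largest negative log2 fold change per comparison whose replicates did not overlap, and for *Dot1l*, and other called members are named. *Wdr5*, *Ash2l*, *Rbbp5*, and uncalled paralogues were named after their values were seen. Of the further lists, the genes with the 2 largest positive and 2 largest negative differences at day 6 have values. Alternatives were other scalings, filters, a pseudocount of 1 CPM, the fit of only the groups compared, no variance trend, voom on the recovered reads, the replicate number as a block, each library left out and the exon length relation (lowess, span 0.3) removed. Figures were drawn with matplotlib 3.10.9.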

Additional observations from a re-analysis of the deposited data

Results flagged for a closer look

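For 9 members the difference between the knockdowns was not the same at day 6 as at day 3, by the interaction term of the limma fit. The change of the difference, *siOct4* minus *siNcor1*, was 1.44 for *Dpy30*, 1.01 for *Setd4*, 0.94 for *Kdm1b*, 0.90 for *Suv39h2*, 0.78 for *Setd6* and 0.76 for *Wdr5*, and -0.58 for *Setd7*, -0.65 for *Setd1b* and -0.71 for *Kdm5b*, with adjusted p-values between 0.00225 and 0.0416. The call of *Setd1b* was kept in 1 of 8 fits that left out a library and in 4 of 10 other alternatives, and that of *Dpy30* in 8 of 8 and 10 of 10.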

How the results depend on the processing

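With 2 libraries per group, leaving out a library moved the number of members called between 4 and 19 at day 6, between 9 and 27 over time in *siNcor1*, between 19 and 29 over time in *siOct4* and between 2 and 13 for the change of the difference, while at day 3 it stayed at 0. The main counts were 13, 18, 31, 9 and 0, beside 30.7%, 34.8%, 52.7%, 20.7% and 1.07% of all genes. Where members were called at all, the fits with the fewest member calls also called fewer of all genes than the main fit. Over time in *siNcor1*, the fit of only the groups compared called 28 members and removal of the exon length relation 10. Of all genes the first called 2471 higher and 3600 lower and the second 2082 and 2055, beside 1917 and 2902 in the main fit. Over time in *siOct4*, quantile normalization called 20 and removal of the length relation 9. Of all genes the first called 3239 higher and 3598 lower and the second 3272 and 3331, beside 3079 and 4233 in the main fit. The change of the difference was called for 4 members without a variance trend. That fit called 641 of all genes in the positive and 1284 in the negative direction, beside 1077 and 1790 in the main fit. With the length relation removed, 7 members called lower over time in *siOct4* had a positive value, none past the threshold: *Ash2l* 0.014, *Ehmt1* 0.071, *Kdm3b* 0.13, *Kdm7a* 0.061, *Kmt2a* 0.063, *Kmt5b* 0.022 and *Setd5* 0.18, and so had *Dot1l* at 0.054. *Dot1l*, never called, also changed sign at day 6 without *siOct4* day 6 R1 (-0.12 to 0.32 over the libraries left out) and for the change of the difference without *Gm26917* (0.062), with the length relation removed (0.076) and without single libraries (-0.27 to 0.17). For the other alternatives the direction of every call was kept.

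Library totals without *Gm26917* moved the median of all genes from -0.03 to 0.08 at day 6, from -0.08 to 0.12 over time in *siOct4* and from 0.01 to 0.13 for the change of the difference, and the share of higher among all calls from 39.5% to 54.5%, from 42.1% to 57.5% and from 37.6% to 52.9%. Member calls were then 8 higher and 6 lower at day 6, beside 2416 of all genes higher and 2020 lower. Over time in *siOct4* they were 7 higher and 14 lower, beside 4138 and 3064 of all genes. Most of the 71 member calls were lost in at least 1 of the fits that left out a library. Where that library lies outside the groups compared, the log2 fold change is unchanged and only the estimate of the spread moves. The replicate numbers of the labels were checked as pairs. Libraries of 1 number deviated from their group means with correlations between -0.040 and 0.281, and 3 of the 6 pairs of groups exceeded 0.1. The highest was that of *siNcor1* and *siOct4* at day 6. A shared replicate effect is therefore not excluded, and whether same-numbered libraries share a batch is not stated. The main fit did not pair the samples. The replicate block called 1931 of all genes higher and 2767 lower at day 6, beside 1678 and 2573 in the main fit. With the replicate block, 14 members were called at day 6, 20 over time in *siNcor1*, 31 over time in *siOct4* and 9 for the change of the difference, and all 71 member calls were kept.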
